A study of Mus musculus with 24 samples.

Results

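Histone genes were followed on 106 of the 41345 probe sets of the Affymetrix Mouse Gene 2.0 ST array. They were chosen by gene symbol alone: a probe set was taken when the platform annotation gave it at least 1 symbol of the core or linker histone families (H1, H2A, H2B, H3 or H4), and no measured value entered the choice. Of the 106 probe sets, 66 carried clustered histone genes and 40 carried replacement histones, and together they named 98 histone symbols. Only 47 of them listed 1 gene symbol. The other 59 listed several, up to 12 histone symbols on 1 probe set, and such probe sets are given by their ID and family. Copies of clustered histone genes are nearly identical in sequence. No clustered H3 probe set and no H3.3 probe set had a symbol of its own, and 5 pairs of probe sets differed by at most 0.01 on every array and so measured 1 thing.

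The tissue was the proximal tibial growth plate of 3-day-old mice, from which PZ, the zone of proliferation, and HZ, the zone of hypertrophy, were cut out by laser capture microdissection. Each of the 24 arrays held 1 zone of 1 animal, with tissue from many sections of that animal combined, and the groups were KO HZ, WT HZ, KO PZ and WT PZ with 6 arrays each. The KO group, labelled Ezh2 KO, were Col2-cre Ezh1-/- Ezh2 fl/fl mice, in which Ezh1 was missing everywhere and Ezh2 was deleted where the Col2 promoter drives Cre. The controls were labelled wild type. By the crosses that the study's methods describe, parents were Col2-cre Ezh1-/- Ezh2 +/fl on a mixed background, and littermates of such crosses that are wild type at Ezh2 lack Ezh1 as well.

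Histones package DNA into nucleosomes, each built around an octamer of H2A, H2B, H3 and H4, with the linker histone H1 at the entry and exit of the DNA. Clustered histone genes are transcribed in S phase, when new DNA has to be packaged, and their transcripts end in a stem-loop in place of a poly(A) tail. Replacement histones such as H3.3 and H2A.Z are made outside S phase too, from polyadenylated transcripts. Chondrocytes divide in the PZ and leave the cell cycle as they enter the HZ, and EZH1 and EZH2 are the enzymes that methylate histone H3 at lysine 27.

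The zones were told apart by their markers. Col10a1, the collagen of hypertrophic chondrocytes, was higher in the HZ by 3.65 in KO and 3.27 in WT on the log2 scale, and the proliferation marker Mki67 fell by 1.39 in KO and by 1.59 in WT. Top2a, a topoisomerase of dividing cells, fell by 1.87 in KO and by 1.94 in WT. Ihh, a signal made by prehypertrophic chondrocytes, was higher in the HZ by 1.46 in KO and 2.14 in WT (adjusted p = 3.03e-07 and 9.07e-10). Ezh2 stood at 5.85 to 6.67 in KO PZ against 6.88 to 7.27 in WT PZ, with no overlap (limma adjusted p = 0.0852), and averaged 6.43 ± 0.15 in KO HZ and 6.27 ± 0.23 in WT HZ (SD, n = 6 arrays each, limma adjusted p = 0.899). Whether its probe set covers the deleted part is not given in the sources used here. By quantitative PCR on microdissected zones of the same age, the paper reports much lower Ezh2 in KO, in the HZ as well as the PZ. It also reports loss of Ezh2 in KO cartilage by immunostaining. Ezh1 lay between 4.33 and 4.88 on all 24 arrays. Endothelial markers (6 of 7 higher in both genotypes, with Vwf lower in WT by a called difference of -0.27), myeloid markers (6 of 7 higher in both) and osteoclast markers (7 of 7 higher in KO and 5 of 7 in WT) were also higher in the HZ. The mean level of the endothelial list ran over 5.35 to 6.62 in KO HZ against 3.87 to 4.23 in KO PZ, and over 4.40 to 6.47 in WT HZ against 3.89 to 5.02 in WT PZ. That of the myeloid list ran over 5.30 to 6.63 in KO HZ against 4.40 to 5.23 in KO PZ, and over 5.51 to 6.46 in WT HZ against 4.10 to 5.73 in WT PZ. That of the osteoclast list ran over 5.73 to 6.90 in KO HZ against 4.26 to 5.16 in KO PZ, and over 5.22 to 6.27 in WT HZ against 3.92 to 5.72 in WT PZ. The zones did not overlap in KO and overlapped in WT for each of these lists. The interquartile range of all values was narrower on HZ arrays (1.43 to 1.78 in KO, 1.35 to 1.77 in WT) than on PZ arrays (1.82 to 1.96 in KO, 1.79 to 2.02 in WT). Sex-linked genes went against the shared number of 2 WT animals, 3 and 5, whose HZ and PZ arrays differed in sex. The part of any of these in the histone values was not tested. In whole tissue of this kind, fewer cells of a type and less RNA per cell cannot be told apart.

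Promoters of 5 genes on which the results turn are printed here, H2ac10, H2ac21 and H1f5 for the larger differences below zero between HZ and PZ, and H2bc14 and H4c17 for genes of the same clusters that were higher in the HZ. Each window runs 5′ to 3′ in the direction of transcription, from 250 bases before to 50 bases after the start of the gene in RefSeq (GRCm38.p6). Capitals mark matches on either strand to CCAAT, to TATAAA, to the octamer ATTTGCAT known from H2B promoters and to AAACACA, known as the H1 box.
H2ac10, chr13:23533625-23533924, plus strand: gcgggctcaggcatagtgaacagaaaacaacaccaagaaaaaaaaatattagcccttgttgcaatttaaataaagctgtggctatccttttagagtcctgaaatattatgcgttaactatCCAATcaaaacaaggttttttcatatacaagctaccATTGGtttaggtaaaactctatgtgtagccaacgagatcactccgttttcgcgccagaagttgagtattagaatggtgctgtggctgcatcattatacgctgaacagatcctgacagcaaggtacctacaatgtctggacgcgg
H2ac21, chr3:96219635-96219934, plus strand: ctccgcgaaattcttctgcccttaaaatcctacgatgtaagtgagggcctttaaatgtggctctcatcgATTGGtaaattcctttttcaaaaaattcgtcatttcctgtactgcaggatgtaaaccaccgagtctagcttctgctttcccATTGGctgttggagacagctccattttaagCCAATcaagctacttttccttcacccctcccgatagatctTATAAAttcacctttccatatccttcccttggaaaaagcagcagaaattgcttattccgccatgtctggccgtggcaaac
H1f5, chr13:21780576-21780875, minus strand: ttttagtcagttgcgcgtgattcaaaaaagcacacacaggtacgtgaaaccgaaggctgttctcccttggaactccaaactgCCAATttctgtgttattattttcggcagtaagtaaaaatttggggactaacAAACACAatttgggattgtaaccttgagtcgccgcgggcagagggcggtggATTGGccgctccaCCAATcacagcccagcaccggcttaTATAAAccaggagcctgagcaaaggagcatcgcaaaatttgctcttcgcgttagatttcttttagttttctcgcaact
H2bc14, chr13:21721794-21722093, plus strand: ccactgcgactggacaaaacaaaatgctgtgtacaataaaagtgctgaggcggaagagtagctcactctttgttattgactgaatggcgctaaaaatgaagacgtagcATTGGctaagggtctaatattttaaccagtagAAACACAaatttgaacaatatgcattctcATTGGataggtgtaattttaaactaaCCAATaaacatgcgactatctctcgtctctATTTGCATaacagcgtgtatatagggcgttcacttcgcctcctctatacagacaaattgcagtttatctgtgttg
H4c17, chr13:21811496-21811795, plus strand: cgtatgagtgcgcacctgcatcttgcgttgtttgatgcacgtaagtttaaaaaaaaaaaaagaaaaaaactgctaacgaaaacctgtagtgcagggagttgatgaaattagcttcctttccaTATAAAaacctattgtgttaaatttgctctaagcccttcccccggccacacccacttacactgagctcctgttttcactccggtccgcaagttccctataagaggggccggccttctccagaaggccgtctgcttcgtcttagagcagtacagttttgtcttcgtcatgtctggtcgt
RefSeq windows were found for 92 of the 98 histone symbols. CCAAT was present in 49 of 57 clustered histone promoters (86%) and in 37.4% of all 32851 promoters, TATAAA in 33 (57.9%) and 13.6%, the octamer in 11 (19.3%) and 1.74%, and the H1 box in 6 (10.5%) and 7.18%. The H1 box was in 4 of 5 promoters of clustered H1 genes, and the octamer was in 5 of 14 H2B promoters and 6 of 17 H2A promoters. CCAAT was in all 17 H2A, all 14 H2B and all 10 H3 promoters but in only 3 of 11 H4 promoters. Among the printed windows, CCAAT had 3 matches in H2ac21, in H1f5 and in H2bc14, 2 in H2ac10 and none in H4c17, and TATAAA had 1 match in H2ac21, in H1f5 and in H4c17. The octamer had 1 match in H2bc14, and the H1 box had 1 in H1f5 and in H2bc14. These letters are a description and mark no bound site.

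Between HZ and PZ, a minority of the histone probe sets changed, in both directions. In KO, 13 were higher and 7 lower in the HZ, where 16.3% and 16.9% of all probe sets were called (limma adjusted p under 0.05). In WT, 11 were higher and 10 lower, against 19.5% and 17% of all probe sets. The histones were thus called less often than the probe sets of the whole array (20 of 106 in KO against 33.1%, 21 of 106 in WT against 36.5%), and the difference in share was not tested. Of the calls, 8 higher and 4 lower were made in both genotypes, and none was called in opposite directions. The counts moved with the processing and the arrays. KO higher was 8 without KO HZ array 4 or KO PZ array 4, 8 with no replicate block and 6 with the animal as a fixed block, and WT lower was 4 after quantile normalization and 3 without WT arrays 3 and 5.

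**Figure D1:**
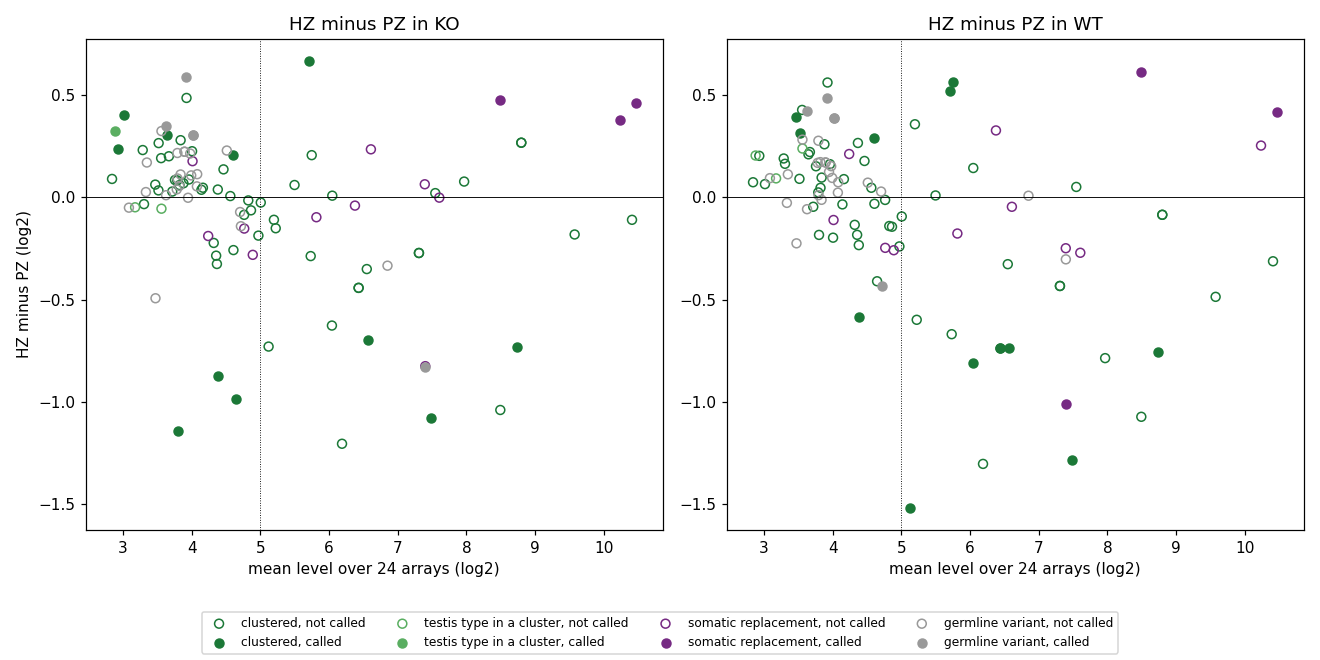
HZ minus PZ (log2, vertical axis) against the mean level over the 24 arrays (log2, horizontal axis) of the 106 histone probe sets, in KO on the left and WT on the right; filled points are called at an adjusted p under 0.05 and the dotted line marks a level of 5. Differences reach -1.20 in KO and -1.52 in WT, and the highest are 0.67 in KO and 0.61 in WT.

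Of the 66 clustered probe sets, 26 had a mean of 5 or more over the 24 arrays, whereas 65.4% of all probe sets lay under that level. Among these 26, 1 was higher and 3 lower in KO, with a median difference of -0.23, and 2 were higher and 7 lower in WT, with a median of -0.46. All probe sets of that brightness had medians of -0.23 in KO and -0.24 in WT, with 33.7% and 35.2% of them called lower and 13.7% and 14.6% higher, so that 3 of 26 (11.5%) in KO and 7 of 26 (26.9%) in WT lay under the background. The calls among the 26 depended on the scaling and on the animals. After the arrays were quantile normalized again they were 3 higher and 1 lower in KO and 2 higher and 2 lower in WT, and without WT arrays 3 and 5 they were 1 higher and 4 lower in KO and 2 higher and 2 lower in WT. The 40 dim clustered probe sets had medians of 0.05 in KO (5 higher and 3 lower) and 0.09 in WT (3 higher and 1 lower), where all dim probe sets had 0.10 (17.6% higher and 7.96% lower) in KO and 0.14 (22.1% and 7.43%) in WT.

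Among the clustered H2A genes with 1 symbol, H2ac10 fell in both genotypes. H2ac10, a clustered H2A gene, had a lowest, median and highest level of 5.70, 7.14 and 7.97 in KO HZ against 7.66, 7.97 and 8.57 in KO PZ, and of 5.95, 6.77 and 7.64 in WT HZ against 7.68, 8.13 and 8.49 in WT PZ. The WT groups did not overlap, and in KO only the HZ array of animal 4 reached into the PZ range. It fell by 1.08 ± 0.29 (SE) in KO (adjusted p = 0.00603) and fell by 1.28 ± 0.29 in WT (adjusted p = 0.00141). It kept that call under all the alternatives tried in both genotypes, with differences from -1.29 to -0.84 in KO and from -1.45 to -0.97 in WT.

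H2ac21 (17400539) stood at 3.31, 4.76 and 6.09 in KO HZ against 4.55, 5.69 and 6.32 in KO PZ, and at 3.57, 4.11 and 5.23 in WT HZ against 4.65, 5.83 and 6.47 in WT PZ. The groups overlapped in both genotypes. It fell by 1.52 ± 0.43 in WT (adjusted p = 0.00829), and the difference was -0.73 ± 0.43 in KO (adjusted p = 0.197). The interaction between zone and genotype was 0.79 with an adjusted p of 0.869. A dimmer probe set of the same gene (17408008) gave -0.09 in KO and -0.01 in WT, neither called, so the 2 probe sets of this gene disagreed. An H2A probe set with 10 symbols (17291012), among the brightest members, fell by 0.73 ± 0.20 in KO and by 0.76 ± 0.20 in WT (adjusted p = 0.00624 and 0.00439). Other probe sets list the same 10 symbols, and none of them was called lower in either genotype. Among these, 17285867 had one of the larger differences, -1.20 in KO and -1.30 in WT, but with adjusted p of 0.0744 and 0.0503 it was called in neither.

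Of the 5 clustered H1 probe sets, 1 was lower in WT and none was called in KO by limma. H1f5, a linker histone, stood at 6.65, 7.89 and 9.26 in KO HZ against 8.17, 8.88 and 9.89 in KO PZ and at 6.06, 8.18 and 9.31 in WT HZ against 8.88, 8.97 and 9.90 in WT PZ. The HZ arrays spread over more than 2 log2 units in both genotypes and overlapped the PZ. The difference of -1.04 ± 0.46 in KO and -1.07 ± 0.46 in WT did not pass the test (adjusted p = 0.0835 and 0.069). It passed in KO without KO HZ array 4 or WT HZ array 5, with a lowest adjusted p of 0.0323, and in WT without WT HZ array 1 or 2, with a lowest adjusted p of 0.028. H1f2 fell by 0.81 ± 0.32 in WT (adjusted p = 0.0495), a call that 24 of the 35 alternatives did not make, and stood at -0.63 ± 0.32 in KO (adjusted p = 0.133). H1f10, the replication-independent linker variant, differed by -0.15 in KO and -0.25 in WT and was called in neither.

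H2B and H4 genes moved both ways. H2bc14, a clustered H2B gene, stood at 5.83, 6.01 and 6.34 in KO HZ against 5.15, 5.35 and 5.59 in KO PZ and at 5.55, 5.83 and 6.54 in WT HZ against 5.22, 5.45 and 5.77 in WT PZ, with no overlap between the KO zones. It was higher in the HZ by 0.67 ± 0.13 in KO (adjusted p = 4.30e-04) and by 0.52 ± 0.13 in WT (adjusted p = 0.00387). H4c17, an H4 gene of the same chromosome 13 cluster with a dimmer probe set, was higher by 0.21 ± 0.08 in KO (adjusted p = 0.0488) and by 0.29 ± 0.08 in WT (adjusted p = 0.00721). The KO call was lost under 21 of 34 alternatives. H2bc22 was higher by 0.31 in KO (adjusted p = 0.0489) and stood at 0.21 in WT (adjusted p = 0.165), with levels of at most 4.17 on all arrays, and its KO call was lost under 22 of 34 alternatives.

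By contrast, an H4 probe set with 6 symbols (17285706) fell by 0.70 ± 0.23 in KO and by 0.74 ± 0.23 in WT (adjusted p = 0.0251 and 0.0175). A dimmer one with 13 symbols (17291019) fell by 0.87 in KO and by 0.58 in WT (adjusted p = 0.00378 and 0.041). Of the 12 clustered H4 probe sets, only these 2 lay below 0 in WT, and only they were called lower in KO. Other probe sets list the same 13 symbols as 17291019, so probe sets of the same genes disagreed. H4c12, the brightest H4 member with 1 symbol, stood at 6.94, 7.51 and 8.28 in KO HZ against 6.98, 7.59 and 8.03 in KO PZ and differed by 0.02 in KO and 0.05 in WT. An H2B probe set with 12 symbols, deposited under the IDs 17285710 and 17291014 with values equal within 0.01, fell by 0.74 ± 0.23 in WT (adjusted p = 0.0166) and stood at -0.44 in KO (adjusted p = 0.148). A further probe set with the same 12 symbols (17285691) was not called lower in either genotype. Other calls were made in 1 genotype. The H3 probe sets 17285680 (4 symbols) and 17285825 (8 symbols) were higher in WT by 0.56 and 0.39 (adjusted p = 0.0176 and 0.0172) and stood at 0.21 and 0.06 in KO. No other clustered H3 probe set was called higher in WT, though several list the same symbols. In KO, an H2B probe set with 3 symbols (17285834) fell by 0.99 (adjusted p = 0.0468) and stood at -0.41 in WT. Another with the same 3 symbols (17285851) was not called lower in either genotype. H2bc1, known from the testis, was higher in KO by 0.32 (adjusted p = 0.0117) and stood at 0.20 in WT. By family, the 12 clustered H4 probe sets gave 1 higher and 2 lower in both genotypes, and the 17 H2B probe sets gave 4 higher and 1 lower in KO and 1 higher and 2 lower in WT. The 2 H2B calls lower in WT are the near-identical pair and so 1 measurement. Over all probe sets, 16.3% were higher and 16.9% lower in KO, and 19.5% and 17% in WT, and these family counts are too small to be read against those shares.

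**Figure D2:**
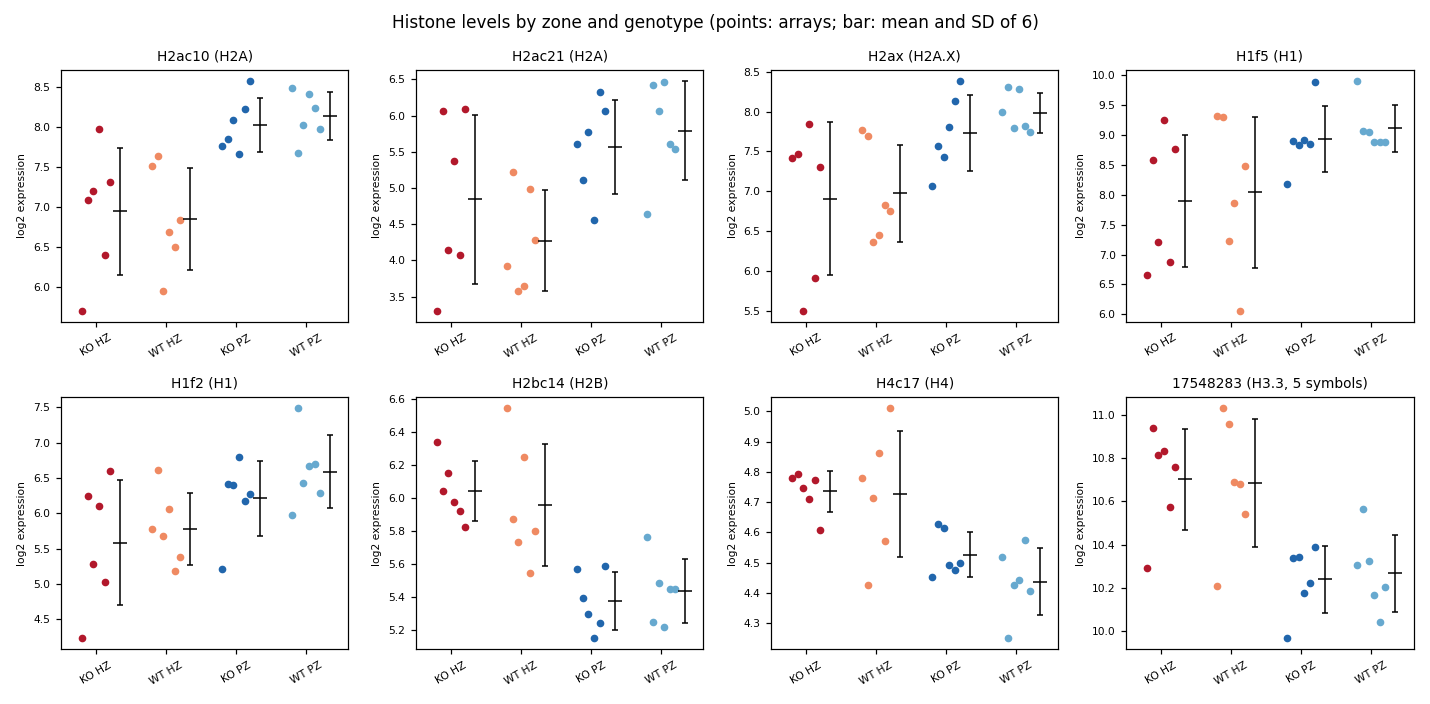
Log2 level on each of the 24 arrays (points) with the mean and SD of 6 arrays (bars) for 8 histone probe sets in KO HZ, WT HZ, KO PZ and WT PZ. H2ac10, H2ac21, H2ax and the H1 genes spread widely within the HZ and lie lower there on average. H2bc14, H4c17 and the H3.3 probe set shown lie higher in the HZ, while other H3.3 probe sets did not.

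Among the replacement histones other than germline variants, only H2ax and some H3.3 probe sets were called between zones. H2ax encodes H2A.X, which is phosphorylated next to DNA breaks, and stood at 5.50, 7.36 and 7.84 in KO HZ against 7.07, 7.69 and 8.38 in KO PZ and at 6.37, 6.79 and 7.77 in WT HZ against 7.74, 7.91 and 8.30 in WT PZ. It fell by 1.01 ± 0.32 in WT (adjusted p = 0.0181) and stood at -0.83 ± 0.32 in KO (adjusted p = 0.0535), and the interaction was 0.19 with an adjusted p of 0.97. HZ and PZ arrays overlapped in both genotypes. The WT call was lost without WT HZ array 4 (adjusted p = 0.0501), without WT arrays 3 and 5 (adjusted p = 0.106) and after quantile normalization (adjusted p = 0.0998). The KO difference passed under 7 of 35 alternatives, among them without KO HZ array 1, 2 or 4, KO PZ array 1 or WT HZ array 1 (adjusted p from 0.0217 to 0.0467). The H3.3 genes lay on 7 probe sets, none with a symbol of its own. Of these, 3 were called higher in KO and 2 in WT, and none was called lower. Of all probe sets, 16.3% in KO and 19.5% in WT were called higher, so these are few calls to set against that share. In WT 4 of the 7 lay above 0 and 3 below, down to -0.27, and 1 of the 3 had an unadjusted p under 0.05 by limma. In KO 5 lay above 0 and 2 below, down to -0.04. The 7 probe sets thus disagreed in direction. The brightest of them (17548283, 5 symbols) stood at 10.29, 10.79 and 10.94 in KO HZ against 9.97, 10.28 and 10.39 in KO PZ and at 10.21, 10.68 and 11.03 in WT HZ against 10.04, 10.25 and 10.57 in WT PZ. It was higher by 0.46 ± 0.12 in KO (adjusted p = 0.00511) and by 0.42 ± 0.12 in WT (adjusted p = 0.0101), and a second probe set with the same symbols (17258521) by 0.47 in KO and 0.61 in WT (adjusted p = 0.0199 and 0.00342). The zones overlapped for both probe sets, with 1 or 2 HZ arrays of each genotype within the PZ range.

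H2A.Z, the variant found at gene starts, is made from H2az1 and H2az2, and neither was called between zones. H2az1 stood at 4.74, 5.84 and 6.18 in KO HZ against 4.95, 5.99 and 6.26 in KO PZ and at 3.68, 6.05 and 6.71 in WT HZ against 4.69, 6.17 and 6.36 in WT PZ, and differed by -0.10 ± 0.35 in KO and -0.18 ± 0.35 in WT (adjusted p = 0.856 and 0.714). On H2az1, 2 animals lay apart. KO animal 3 had 4.74 in the HZ and 4.95 in the PZ, and WT animal 1 had 3.68 in the HZ and 4.69 in the PZ, the lowest values of their groups. The other KO animals lay between 5.77 and 6.26 and the other WT animals between 5.71 and 6.71. H2az2 was low in WT animal 1 in both zones (5.20 in the HZ and 6.03 in the PZ) but not in KO animal 3 (6.90 in the HZ and 6.66 in the PZ), and differed between zones by 0.23 in KO and -0.05 in WT. H2aj differed by -0.19 in KO and 0.21 in WT and was called in neither.

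**Figure D3:**
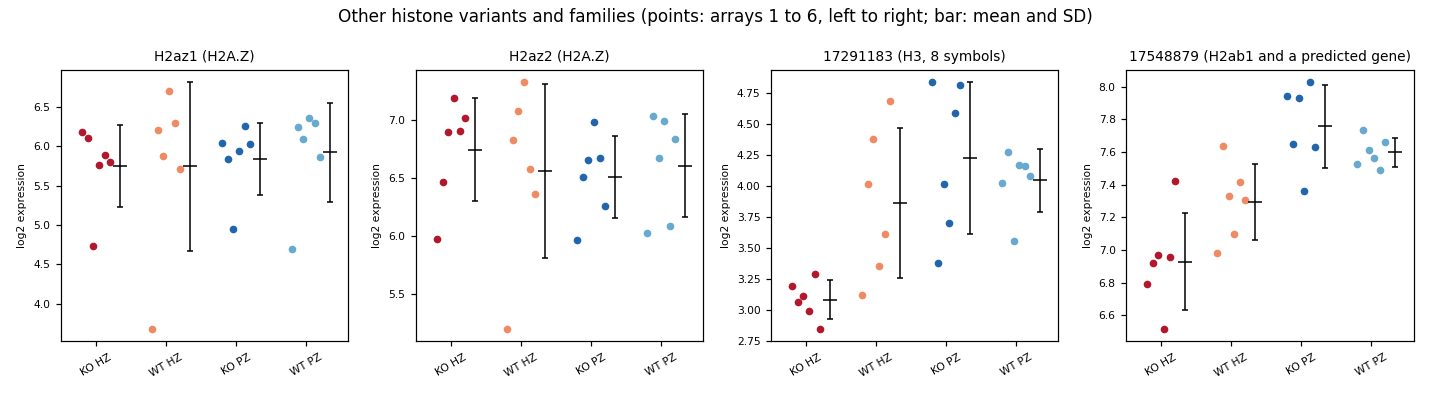
Log2 level by array (points, arrays 1 to 6 left to right within each group, with mean and SD) of H2az1, H2az2 and the multi-symbol probe sets 17291183 and 17548879. H2az1 is lowest in array 3 of both KO groups and in array 1 of both WT groups, and 17291183 lies between 2.84 and 3.29 in KO HZ.

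The remaining 27 replacement probe sets carry variants known from the germ line. In KO, 4 were higher and 1 lower in the HZ, and in WT 4 were higher and 1 lower. H2al1j was higher by 0.59 in KO (adjusted p = 0.0166) and 0.49 in WT (adjusted p = 0.0425), and H2ap by 0.35 in KO and 0.42 in WT (adjusted p = 0.0385 and 0.013), with all values of H2ap between 3.20 and 4.36. The H2al1j call in WT was lost under 13 of 34 alternatives (adjusted p up to 0.302) and the H2ap call in KO under 12 of 34 (adjusted p up to 0.160), 7 of each by leaving out 1 array. The 2 probe set IDs for H2al2b and H2al2c held the same values and were higher by 0.30 in KO and 0.39 in WT (adjusted p = 0.00914 and 0.00125). They are 1 measurement that enters the counts of 4 higher under both IDs. Both genes lie on chromosome Y in RefSeq, and the paper states that each genotype held males and females. Whether the difference reflects expression of these genes was not tested. All dim probe sets, of any gene, had 17.6% called higher in KO and 22.1% in WT. H2ab1 (17537345) fell by 0.43 in WT (adjusted p = 0.00644) and stood at -0.14 in KO. A brighter probe set shared with a predicted gene (17548879) fell by 0.83 ± 0.13 in KO (adjusted p = 2.05e-05) and stood at -0.30 ± 0.13 in WT (adjusted p = 0.0626). Another H2ab1 probe set with 1 symbol (17548877) ran over the alternatives from 0.04 to 0.16 in KO and from -0.14 to 0.04 in WT. It was called under no alternative, so the probe sets of this gene disagreed.

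Between KO and WT, no histone probe set passed the test in either zone. In the HZ, 0 of 106 were called by limma (7 of all probe sets, 0.0169%), and 1 above and 3 below 0 had an unadjusted p under 0.05. In the PZ, 0 of 106 were called (170 of all probe sets, 0.411%), and 2 above and 4 below 0 had such an unadjusted p. For all probe sets, 6.6% in the HZ and 7.47% in the PZ fell under that unadjusted p, so the 4 and 6 members lay under that share. The unmoderated test and the other alternatives also called none. No member had KO and WT groups that did not overlap in either zone (0.457% of all probe sets in the HZ and 0.834% in the PZ). A p that misses the threshold does not show that the levels were equal.

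**Figure D4:**
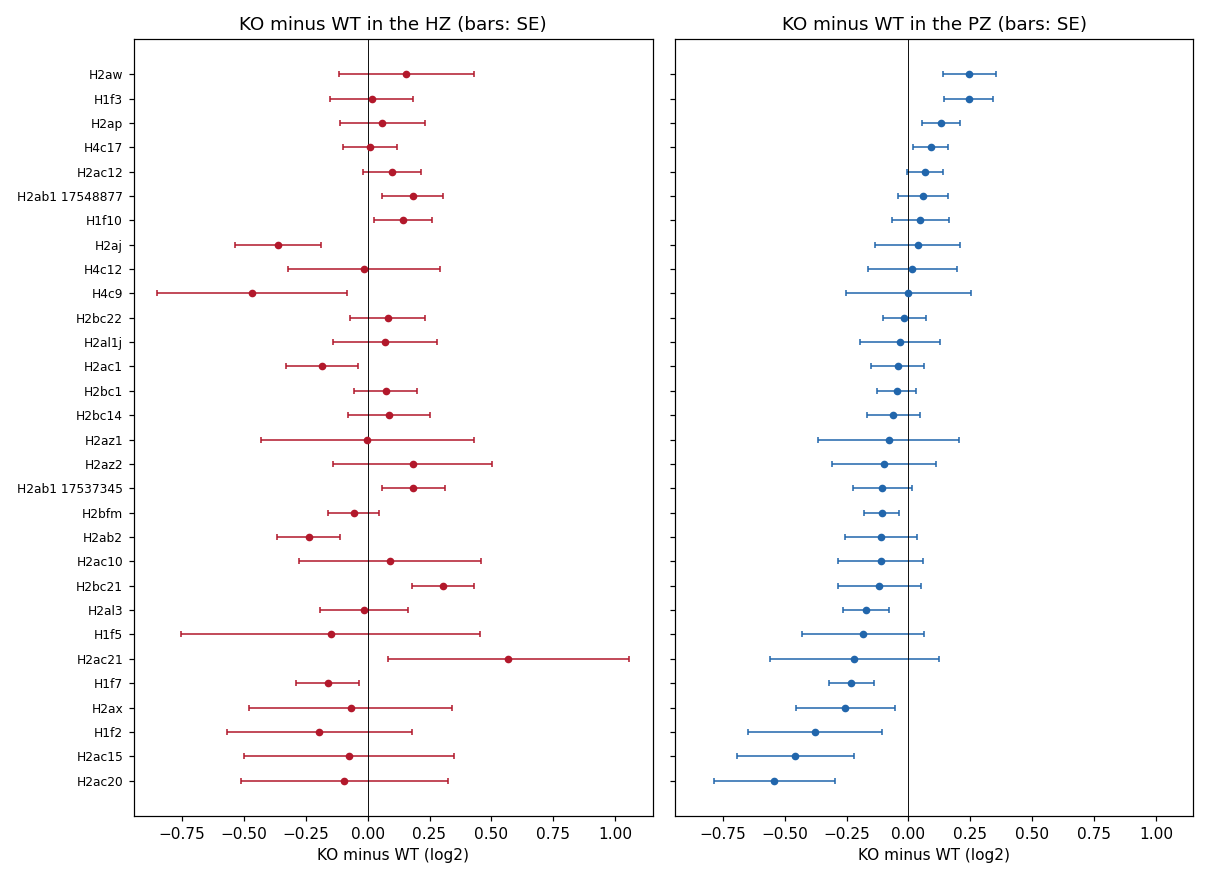
KO minus WT (log2) with its SE for 30 named histone probe sets, in the HZ on the left and the PZ on the right, with 6 arrays in each group. The points lie on both sides of 0, between -0.47 and 0.57 in the HZ and between -0.54 and 0.25 in the PZ.

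In the HZ, the lowest unadjusted p belonged to an H3 probe set with 8 symbols (17291183). It stood at 2.84, 3.09 and 3.29 in KO HZ against 3.12, 3.81 and 4.68 in WT HZ, overlapping on 1 WT array that lay inside the KO range, and at 3.38, 4.30 and 4.84 in KO PZ against 3.55, 4.12 and 4.28 in WT PZ. The KO minus WT difference was -0.78 ± 0.24 in the HZ (limma adjusted p = 0.459, exact permutation p = 0.00866) and 0.18 in the PZ (adjusted p = 0.95). Between zones it fell by 1.14 ± 0.24 in KO (adjusted p = 7.70e-04) and stood at -0.18 ± 0.24 in WT (adjusted p = 0.563), and the difference between these, -0.96, had an unadjusted p of 0.00967 and an adjusted p of 0.517. Its KO HZ values were at most 3.29, and its mean over the 24 arrays was under 5. Other H3 probe sets list the same 8 symbols. Of the 12 clustered H3 probe sets, 17291183 alone had an unadjusted limma p under 0.05 between KO and WT in the HZ. It alone was called lower between zones in KO, so probe sets of the same genes disagreed. H2bc21, a clustered H2B gene, stood at 3.82, 4.24 and 4.37 in KO HZ against 3.55, 3.89 and 4.08 in WT HZ, a difference of 0.30 ± 0.13 (adjusted p = 0.703, exact permutation p = 0.0281), and H2aj stood at 3.59, 4.17 and 4.44 in KO HZ against 3.99, 4.55 and 4.70 in WT HZ, a difference of -0.36 ± 0.17 (adjusted p = 0.767).

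In the PZ, the bright clustered probe sets lay mostly below 0. Of the 26 with a mean of 5 or more, 22 were below 0, with a median of -0.07. Of all 14311 probe sets of that brightness, 8438 were below 0, with a median of -0.04. Many of the 26 share symbols and are not independent, and the count was not tested. By array, the median level of the 26 overlapped between genotypes, at 6.44 to 7.21 in KO PZ and 6.54 to 7.16 in WT PZ. In the HZ 11 of the 26 were below 0, with a median of 0.06, against 7500 of 14311 with a median of -0.02. H2ac20, a clustered H2A gene, stood at 4.44, 5.06 and 6.02 in KO PZ against 5.15, 5.79 and 6.15 in WT PZ, a difference of -0.54 ± 0.24 (adjusted p = 0.648, exact permutation p = 0.0866), and H2ac15 at 4.92, 5.87 and 6.41 in KO PZ against 5.77, 6.15 and 6.61 in WT PZ, a difference of -0.46 ± 0.23 (adjusted p = 0.724, exact permutation p = 0.119). In both, WT PZ values lay within a narrower range than KO PZ values. The clustered H1 gene H1f3 and the H2A gene H2aw were on the other side of 0, by 0.24 ± 0.10 and 0.25 ± 0.11 (adjusted p = 0.566 and 0.619), and the germline linker histone H1f7 stood at -0.23 ± 0.09 (adjusted p = 0.554). The lowest adjusted p in the PZ was that of an H3.3 probe set with 2 symbols (17220177), at -0.26 ± 0.10 (adjusted p = 0.537, exact permutation p = 0.0152).

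The genotype effect was not shown to differ between the zones for any histone. By limma, 0 of 106 interactions were called (19 of all probe sets, 0.046%), with 3 above and 2 below 0 where the unadjusted p was under 0.05, against 6.81% of all probe sets. The lowest unadjusted p was that of 17548879, H2ab1 with a predicted gene, whose HZ minus PZ difference in KO less that in WT was -0.53 ± 0.18 (unadjusted p = 0.00713, adjusted p = 0.481). H2bc21 had an interaction of 0.42 ± 0.20 and H2aj one of -0.40 ± 0.23 (adjusted p = 0.724 and 0.787). The counts of zone calls that differed between KO and WT are therefore counts, and the difference itself did not pass the test.

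Genes that transcribe, process and deposit histones were called lower in the HZ in part. Of 24 genes for histone mRNA transcription and processing, 1 was higher and 8 lower in KO, and 2 were higher and 12 lower in WT. Ncbp1, which binds the cap of nascent transcripts, fell by 0.68 in KO and by 0.77 in WT, and E2f1, a transcription factor of S-phase entry, fell by 0.62 in KO and by 0.53 in WT, while Cstf2t, a polyadenylation factor, was higher by 0.83 in KO and 1.15 in WT. Of 29 histone chaperones and remodellers, 15 were lower in KO and 22 in WT, and none higher. Chaf1a, the large subunit of the factor that deposits new H3 and H4 behind the replication fork, fell by 1.38 in KO and by 1.31 in WT (adjusted p = 2.54e-07 and 5.39e-07), and Rbbp7, another subunit of histone-binding complexes including PRC2, fell by 0.97 in KO and by 1.27 in WT. Of 30 S-phase genes, 15 were lower in KO and 17 in WT, and none higher, and Pole, the catalytic subunit of DNA polymerase epsilon, fell by 1.19 in KO and by 1.24 in WT on its brighter probe set. A dimmer probe set of Pole gave -0.39 in KO and -0.26 in WT (adjusted p = 0.0636 and 0.198), called in neither. All probe sets with a mean of 5 or more were called lower in 33.7% in KO and 35.2% in WT. The 8 of 24 transcription and processing genes lower in KO lay near that share. Some list members, such as E2f1, had a mean under 5, where 7.96% of all probe sets in KO and 7.43% in WT were called lower. The differences in share were not tested. In the genotype comparisons no member of the 3 lists was called by limma. Before adjustment, 2 above and 1 below 0 in the HZ and 5 below 0 in the PZ had a p under 0.05, smaller shares than the 6.6% of all probe sets in the HZ and 7.47% in the PZ.

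H2ac10 was set beside Mki67 on single arrays. It stood at 7.97 in KO animal 4, where Mki67 was 7.50, and at 5.70 in KO animal 1, where Mki67 was 5.31. In WT it stood at 7.64 in animal 2, where Mki67 was 7.21, and at 5.95 in animal 3, where Mki67 was 5.51. Over the 6 arrays of a group, Pearson's r between H2ac10 and Mki67 was 0.86 in KO HZ (exact permutation p = 0.0208, Spearman's rho 0.83, exact permutation p = 0.0583) and 0.93 in WT HZ (exact permutation p = 0.00833, rho 0.89, exact permutation p = 0.0333). Without the 2 arrays farthest from the median of Mki67, r was 0.57 in KO HZ and 0.73 in WT HZ, over 4 arrays each, so the values depend on those arrays. The gene was chosen after its values were seen. These are 2 of 16 relations computed, between 4 histone genes and Mki67 in 4 groups, and after Benjamini-Hochberg adjustment none passed (adjusted p = 0.167 in KO HZ and 0.133 in WT HZ by the exact permutation test). In the PZ, r was 0.10 in KO (exact permutation p = 0.853) and 0.23 in WT (exact permutation p = 0.65), and without the 2 farthest arrays 0.72 in KO and 0.999 in WT. The other genes varied: in the HZ, r was 0.60 in KO and 0.94 in WT for H2ax (0.06 in WT without the 2 farthest arrays), 0.87 in KO and 0.27 in WT for H2ac21, and 0.31 in KO and -0.19 in WT for H2ab1.

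**Figure D5:**
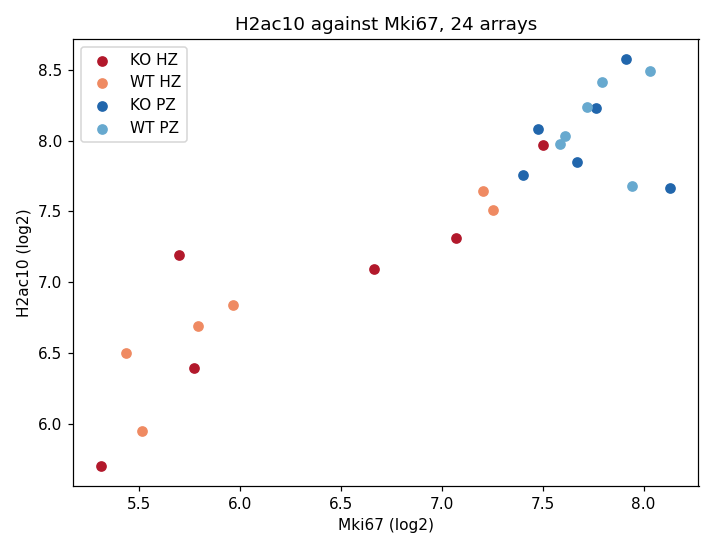
H2ac10 (log2, vertical axis) against Mki67 (log2, horizontal axis) on the 24 arrays, coloured by group. PZ arrays hold a narrow range of Mki67, from 7.40 to 8.13, whereas HZ arrays run from 5.31 to 7.50.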

How the data were processed

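Expression was measured in PZ and HZ tissue of 6 KO and 6 WT mice, 1 array for each zone of each animal. The labels state extraction of RNA from combined sections, and the study's methods state amplification with the NuGEN WT-Ovation Pico kit before hybridization. The labels and the methods give different accounts of extraction and amplification. How transcripts without a poly(A) tail are primed in the amplification is not given in the sources used here. The authors deposited log2 values made with RMA (background correction, normalization and summarization), and values below background are not marked. Gene symbols came from the array's annotation table: 23521 probe sets had 1 symbol, 1820 had several and 16004 had none. For 100 of the 106 members all gene IDs were in the RefSeq table.

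KO and WT were compared in each zone over its 12 arrays, and zones and the interaction over all 24 arrays taking each animal as a random block (estimated correlation 0.0966), by limma 3.58.1 in R 4.3.3, two-sided, with Benjamini-Hochberg adjustment over 41345 probe sets and a threshold of 0.05. Exact permutation tests used all 924 arrangements of 6 against 6, with a smallest p of 0.00216. Procedures were tested on simulated data. The members and lists were chosen with earlier results of these data known. Named with values were the 8 single-symbol members of lowest p in each comparison, 3 in the interaction, listed replacement histones, the 5 brightest clustered members, up to 3 genes of each list, and Ezh2, Ezh1, Mki67, Top2a, Col10a1 and Ihh. Multi-symbol probe sets, H2al2 and H2ac21's dimmer probe set were chosen after their values were seen. Precision is limited by 6 arrays a group. Alternatives were another scaling, a dim filter, other variances and blocks, and leaving out arrays.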

Additional observations from a re-analysis of the deposited data

Results flagged for a closer look

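Single arrays stood far from the other 5 of their group in 8 of the 120 groups of named histone probe sets, where chance gives about 1 in 20. H2az1 was low on both arrays of KO animal 3, at 4.74 in the HZ and 4.95 in the PZ, and on both arrays of WT animal 1, at 3.68 in the HZ and 4.69 in the PZ. WT animal 1 was also apart in H1f3 in the HZ, at 5.16 against 4.24 to 4.50 on the other arrays, and in H1f5 in the PZ, at 9.90 against 8.88 to 9.07. H2ac12 stood at 3.07 on the PZ array of KO animal 1 against 2.75 to 2.87. H1f10 stood at 4.26 on the HZ array of WT animal 2 against 4.61 to 4.69. No reason for these values was tested.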

How the results depend on the processing

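No called value changed sign among the 30 named probe sets with 1 symbol, for which, with the counts and medians, the alternatives were run; single multi-symbol probe sets were not followed through them. The genotype comparisons and the interaction gave 0 called histone probe sets under all alternatives, also with the replicate number as a block, where the numbers were not shown to pair KO with WT animals. The counts between zones moved more. KO higher (13) was 8 with no replicate block and 6 with the animal as a fixed replicate block. After quantile normalization the split was 12 higher and 4 lower in KO, against 13 and 7, and 9 higher and 4 lower in WT, against 11 and 10. Without WT arrays 3 and 5, whose sex-linked genes differed between zones, WT lower was 3. A filter that left out dim probe sets gave 4 higher in KO and 5 higher in WT, and medians of the clustered probe sets of -0.23 in KO and -0.46 in WT. These are the medians of the 26 bright clustered probe sets, without the dim ones. With probe sets of 1 symbol, 7 were higher and 1 lower in KO, and 4 higher and 5 lower in WT, and with 1 probe set per set of symbols KO lower was 4 and WT higher 7. Leaving out each array in turn gave 8 to 14 higher and 5 to 10 lower in KO, and 9 to 13 higher and 7 to 15 lower in WT; KO higher was 8 without KO HZ array 4 or KO PZ array 4. Leaving out the 3 HZ arrays of narrowest range, chosen after seeing the data, gave 1 higher and 2 lower in KO and 1 higher and 7 lower in WT among the bright clustered probe sets. The cause of these moves was not tested. Probe sets near background, 69 of 106 with a mean under 5, limit what can be seen of the rest.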

Other observations

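MacroH2A, a histone variant with a large added domain, lay outside the choice by symbol. Macroh2a1 ran from 6.15 to 6.74 in KO HZ against 5.30 to 6.30 in WT HZ, with overlap (difference 0.47 ± 0.17, SE, limma adjusted p = 0.596), and differed by 0.12 in the PZ (adjusted p = 0.842). Macroh2a2 differed by -0.11 in the HZ and 0.15 in the PZ, neither called.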
